A study of Caenorhabditis elegans with 5 samples.

Results

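Chromosome II of Caenorhabditis elegans carried 906 of the 6159 regions that the authors called as bound by ALR-1 in L2 larvae. These regions, or peaks, were taken by position alone, as every entry of the combined peak list on chromosome II of the WormBase WS190 build, whatever its strength. The study precipitated chromatin with a goat antibody against GFP (ChIP, 3 libraries) and compared it with DNA of the unprecipitated extract (input, 2 libraries), to learn where the tagged factor sat in the genome. Both groups came from hermaphrodites of strain OP200, grown at 20 °C to the L2 stage, which carry the unc119(ed3) mutation and the transgene wgIs200. The ChIP and input libraries thus share this transgene, which was introduced by bombardment and holds the tagged factor (alr-1::TY1 EGFP FLAG C) together with unc119. The genotype lists no mutation of the worm's own alr-1, and no library of an untagged strain was analysed here. Whole larvae were used, so no peak can be placed in a tissue.

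ALR-1 belongs to the homeodomain transcription factors, which bind DNA and control other genes. In the worm it is known for its part in the development of chemosensory neurons, touch receptor neurons and GABAergic motor neurons. Worm chromosomes have no single centromere. Each autosome instead has a central part that is rich in genes and poor in crossovers, and 2 arms that hold more repeats and more heterochromatin. How a factor's peaks are spread over arms and centre is therefore a basic description of where it was found.

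Peaks were deposited as 3 lists, named for replicate 1, replicate 2 and their combination, with 223, 632 and 906 entries on chromosome II. Each peak came with a q-value from the authors' peak caller, which is the only measured value in the files, and −log10 of it is called strength here. All q-values lay below 0.01, so strengths begin at 2.00. Read totals are not in these lists, which leaves the depth of every peak unknown, and a strength ranks peaks within a list but does not measure a change between lists. No peak is given a gene name or a sequence, because the only gene table used here follows the WBcel235 build and no WS190 genome sequence was used. Nothing in the labels ties the replicates to separate cultures, so the spread between them may be technical. Intervals given with shares are 95% Wilson intervals and cover counting error alone. The 7 tests below count peaks as independent although peaks cluster, so their p-values are too small. Adjusted p-values are by Benjamini-Hochberg over these 7 tests, with 0.05 as the threshold.

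Peaks of chromosome II were denser in its centre than in its arms. The stretch from the first to the last peak of any list, 6374 to 15261023, stood for the length of the chromosome (15.3 Mb), and its middle 40% was taken as the centre. The centre, 4582769 to 10684628, held 525 of the 906 combined peaks, or 57.9% (54.7 to 61.1%). Density was 86.0 peaks per Mb in the centre and 41.6 peaks per Mb in the arms, a ratio of 2.07 (exact 95% interval 1.81 to 2.36). The ratio was above 1 by a two-sided exact binomial test (adjusted p = 1.13e-26). Each replicate list showed the same direction. In replicate 1 the centre had 22.9 peaks per Mb and the arms 9.07, and in replicate 2 the centre had 58.3 and the arms 30.2.

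Density rose steeply near the left border of the centre, which lay at 4582769, within the fifth window of 1 Mb. In windows of 1 Mb from position 1 on, the first 5 windows held 31, 33, 31, 27 and 43 combined peaks. The next 6 windows, from 5000001 to 11000000, held 96, 86, 95, 96, 77 and 82. Density then declined in smaller steps, with 61 peaks in the window from 11000001 and 42, 46 and 48 in the 3 windows after it. Both replicate lists also rose between the fifth and the sixth window, but in replicate 1 the rise was more gradual. Replicate 1 had 8, 7, 8, 7 and 13 peaks in the first 5 windows. It had 22, 23, 25 and 35 in the sixth to the ninth. Replicate 2 had 26 peaks in the fifth window and 69 in the sixth. Finer windows, of 100 kb, showed an uneven rise inside the centre. From 4600001 on they held 5, 6, 8, 6, 9 and 4 combined peaks. Those from 5200001 on held 15, 13, 3, 7 and 5. Strength did not follow density: the median strength was 3.98 in the centre, 4.15 in the left arm and 3.71 in the right arm.

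**Figure D1:**
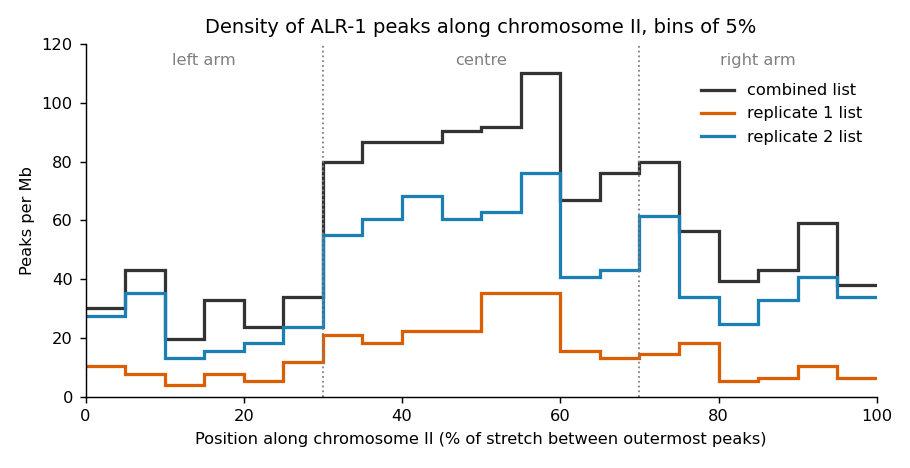
Peaks per Mb (vertical axis) in 20 bins of 5% along chromosome II (horizontal axis), for the combined, replicate 1 and replicate 2 lists; dotted lines mark the borders of the centre. In the combined list the bins of the left arm lie between 19.7 and 43.3 peaks per Mb those of the centre between 66.9 and 110.1, and those of the right arm between 38.0 and 80.0, overlapping the centre.

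The arms were unequal. The left arm, 6374 to 4582768, held 140 combined peaks (30.6 per Mb), and the right arm, 10684629 to 15261023, held 241 (52.7 per Mb). The left to right ratio was 0.581 (exact 95% interval 0.468 to 0.718), below 1 by a two-sided exact binomial test (adjusted p = 9.01e-07). Replicate 2 had 102 peaks in the left arm and 174 in the right, a ratio of 0.586. Replicate 1 had 36 in the left arm and 47 in the right, a ratio of 0.766, and there the exact test did not pass the threshold (adjusted p = 0.318 with this list alone, against 1.24e-06 to 0.0145 for the 4 settings other than the replicate lists and 6.07e-05 for replicate 2).

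Chromosome II had the smallest left to right ratio of the 6 chromosomes in all 3 lists. In the combined list it was 0.581 on II, against 0.872 on III, 0.889 on X, 1.13 on I, 1.35 on IV and 1.42 on V. In replicate 1 it was 0.766 on II and ran from 0.863 on X to 1.32 on V, and in replicate 2 it was 0.586 on II and ran from 0.821 on X to 1.41 on V. The left arm held 15.5% of the combined peaks of II, against 22.05 to 25.3% on the other 4 autosomes. Whether II differs from the other chromosomes in this ratio was not tested, and the combined list is not independent of the replicate lists.

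**Figure D2:**
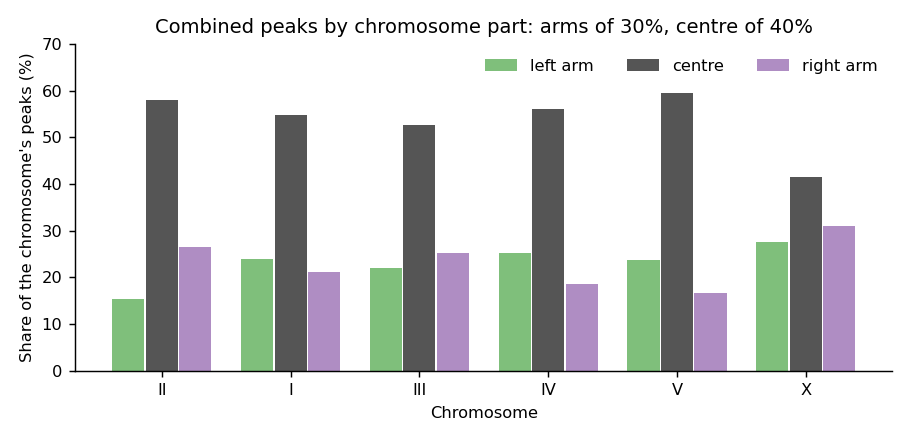
Share of each chromosome's combined peaks (vertical axis, %) in its left arm, centre and right arm, for chromosome II and the other 5 chromosomes (horizontal axis). The left arm bar of II, at 15.5%, is the lowest left arm bar of the 6 chromosomes, whereas its centre bar, at 57.9%, lies between those of IV and V.

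The tests of the centre share and of the total density of chromosome II against other chromosomes did not pass the threshold. The centre held 57.9% of combined peaks on II and 55.7% on I, III, IV and V together, an odds ratio of 1.096 (Fisher's exact test, two-sided, adjusted p = 0.259). Density was 59.4 peaks per Mb on II and 62.2 on the other 5 chromosomes, a ratio of 0.955 with an exact 95% interval of 0.889 to 1.03 (exact binomial test, two-sided, adjusted p = 0.259). Single chromosomes spread widely around the pooled value, with 82.8 peaks per Mb on I, 69.5 on X, 67.5 on III, 53.0 on IV and 45.3 on V. The direction of the density difference was not stable. It turned to a ratio of 1.03 when chromosome I, the densest in the combined list, was left out, and to 1.04 in the replicate 2 list. Peaks of II covered 419 kb, or 2.75% of its length, against 2.97% on the other 5 chromosomes.

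Dense windows lay mostly in the centre. Of 152 complete windows of 100 kb, 33 held 10 or more combined peaks, and these 33 took 393 of the 906 peaks (43.4%). The centre had 27 of them among 61 windows, the right arm 5 among 45 and the left arm 1 among 46. The median window held 8 peaks in the centre, 4 in the right arm and 3 in the left arm. The densest window, 8500001 to 8600000, held 19 combined, 6 replicate 1 and 16 replicate 2 peaks. Its combined peaks together covered 5885 bp, and the strongest of them had a strength of 18.5. Next came 5900001 to 6000000 with 18 combined, 5 replicate 1 and 12 replicate 2 peaks. The window 7900001 to 8000000 held 16, 8 and 13 in the same order of lists, and there 8 of the combined peaks were overlapped by both replicate lists. The window from 5200001 held 15 combined peaks, and those from 6100001 and from 6900001 tied at 14. Replicate 1 had at least 4 peaks in each of these 6 windows, and none in 52 of the 152 windows of the chromosome. The 6 windows were picked by their combined peaks, and the combined list is not independent of the replicate lists.

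Empty stretches lay mostly in the left arm. Combined peaks of II were separated by a median of 8376 bp (interquartile range 2125 to 20556 bp, 905 distances). Of the 13 distances over 100 kb, 10 began in the left arm, 2 in the right arm and 1 in the centre. The longest, 1622189 to 1808237 (186 kb), and the next, 3077647 to 3245915 (168 kb), were free of peaks in the replicate lists too. The 3 after these each held 1 replicate peak that the combined list lacked. They were 14646473 to 14790692 (144 kb) and 772486 to 915310 (143 kb), each with 1 replicate 2 peak, and 622870 to 753108 (130.2 kb), with 1 replicate 1 peak. A missing call is not an absence of binding, since neither depth nor mappability of these stretches was measured here.

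Median spacing followed the same order as density. The median distance to the next combined peak was 5630 bp in the centre, 12085 bp in the right arm and 18053 bp in the left arm. Distances under 1 kb made up 17.7% of those in the centre (93 of 524). Their share was 8.75% in the right arm (21 of 240) and 10.8% in the left arm (15 of 139). The shares of the arms rest on few distances, and the parts were not tested against each other. Across the chromosome 129 of 905 distances (14.3%) were under 1 kb, against 12.2 to 15.5% on the other chromosomes. No combined peaks of II lay closer than 203 bp, and the smallest distance on the other chromosomes ran from 200 to 213 bp.

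**Figure D3:**
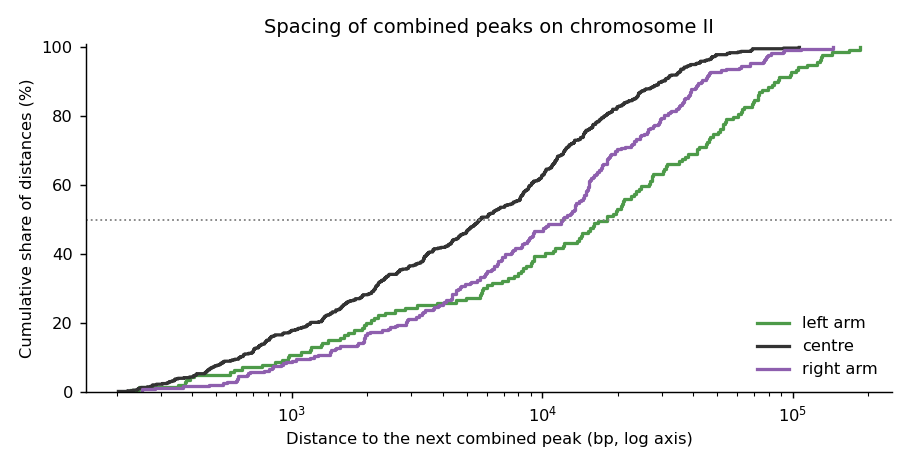
Cumulative share (vertical axis, %) of the distances from each combined peak of chromosome II to the next (horizontal axis, bp, log scale), for pairs within the left arm, the centre and the right arm. The curve of the centre lies to the left, with a median of 5630 bp, and that of the left arm reaches 186049 bp.

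Runs of close peaks were short. When peaks less than 1 kb apart were joined, 678 peaks stood alone, 78 runs had 2 peaks, 14 had 3, 5 had 4 and 2 had 5. The 228 peaks in runs made up 25.2% of the combined peaks of the chromosome, against 21.6 to 27.4% on the other chromosomes. Peaks with a close neighbour had a median strength of 4.37, against 3.80 for those without one. Both replicate lists overlapped 49 of the 228 (21.5%), against 115 of the 678 that stood alone (17.0%). These differences were not tested. The runs of 5 lay at 5042444 to 5047074, with a strongest peak of 8.23, and at 5947630 to 5952555, with a strongest peak of 11.3.

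The second of these was followed after 3122 bp by a run of 4 at 5955678 to 5959324, whose first peak had a strength of 23.1, and then by a run of 4 at 5962300 to 5967061, with a strongest peak of 13.1. Between the runs of 4 lay 1 more peak, at 5960775 to 5961108, that belonged to no run. The 3 runs and this peak spanned 19.4 kb, from 5947630 to 5967061, and the 14 combined peaks covered 39.1% of it. Replicate 2 overlapped 11 of the 14, replicate 1 overlapped 5, and 3 were in neither replicate list. All 5 combined peaks that replicate 1 overlapped were also overlapped by replicate 2. Of all 906 combined peaks of II, both lists overlapped 164, replicate 2 alone 420, replicate 1 alone 50 and neither 272. The region was chosen after its values were seen, and its counts were not tested against those of the chromosome. The median strength of the 14 was 5.19. The other 3 runs of 4 lay at 7323807 to 7328792, 8502429 to 8505059 and 8917769 to 8921252, and each had 1 peak in both replicate lists.

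Most peaks were narrow. The median width was 359 bp (interquartile range 263 to 513 bp) in the combined list, 367 bp in replicate 1 and 351 bp in replicate 2, and on the other chromosomes the combined median ran from 364 to 383 bp. Widths were alike in the parts of the chromosome, with medians of 358 bp in the centre, 353 bp in the left arm and 364 bp in the right arm. Wider peaks were the stronger ones (Spearman's rho = 0.40 across 906 peaks, which share their libraries and are not independent). Of the 109 peaks of at most 200 bp, 1 was overlapped by both replicate lists and 81 (74.3%) by neither. Among the 67 peaks over 800 bp and up to 2000 bp, both replicate lists overlapped 23 (34.3%) and neither overlapped 11 (16.4%).

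The 13 peaks over 2000 bp lay in the centre in 12 cases, and the 5 widest were all there. The widest, 10547683 to 10554018 (6336 bp), had a strength of 8.40, and next to it, after 739 bp, lay 10541918 to 10546943 (5026 bp) with 2.58. Replicate 1 overlapped both of these, with strengths of 3.76 and 2.64, whereas replicate 2 overlapped the first alone, with 2.94. The second widest, 8741846 to 8747575 (5730 bp, strength 4.05), was in neither replicate list. The peak at 5333740 to 5338679 (4940 bp) was both wide and strong, and the peak at 6345168 to 6348910 (3743 bp, strength 7.02) was overlapped by replicate 1 alone, with 2.98. Of all 13 peaks over 2000 bp, both replicate lists overlapped 5 (38.5%) and neither overlapped 1 (7.69%). On the other 5 chromosomes both lists overlapped 31 of the 77 combined peaks over 2000 bp. On II the share in both lists was highest in the widest class, but it rests on 13 peaks. The width classes were not tested against each other.

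The strongest combined peaks of II that both replicate lists overlapped are described next. Among the first 100 of the whole combined list stood 12 peaks of II, which held 14.7% of that list. The strongest, 512017 to 513036 in the left arm, ranked 13 in that list, with a combined strength of 38.0. The strengths of its replicate calls were 5.61 in replicate 1 and 15.8 in replicate 2. It was the only one of the 15 that spanned 2 peaks in each replicate list. The second, 5333740 to 5338679, had 36.2 in the combined list, 7.92 in replicate 1 and 33.8 in replicate 2, the highest replicate 2 value on the chromosome. The peaks at 5276649 to 5277208 and 8311435 to 8312199 had combined strengths of 28.8 and 28.0. Their replicate 1 values were 8.20 and 5.26, and their replicate 2 values 20.7 and 19.6. The left arm had 1 more member, 3502454 to 3503064, with 25.1 in the combined list, 6.75 in replicate 1 and 24.2 in replicate 2.

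The rest of the 15 were in the centre, apart from a pair in the right arm described below. The strongest of these 8 lay at 7213650 to 7214088 (combined strength 27.4), 7461651 to 7462221 (25.6) and 7981091 to 7982110 (23.8). Another, at 8319706 to 8320130 (23.5), was the narrowest of the 15, with 425 bp, and the one at 5955678 to 5956516 (23.1) opened a run of 4 described above. The last 3 lay at 6992771 to 6993365 (21.9), 9207226 to 9207729 (21.1) and 9264637 to 9265345 (20.9). In replicate 1 these 8 peaks had strengths from 3.03 to 7.89, and in replicate 2 from 12.4 to 18.9. The replicate ranges did not overlap, and replicate 2 had the higher value in all 8. This was not particular to these peaks, since the median strength over all of II was 3.88 in replicate 2 and 2.94 in replicate 1. Over the 15 peaks replicate 2 was higher in 13. Their widths ran from 425 to 4940 bp with a median of 673 bp, against 359 bp for all peaks of II.

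**Figure D4:**
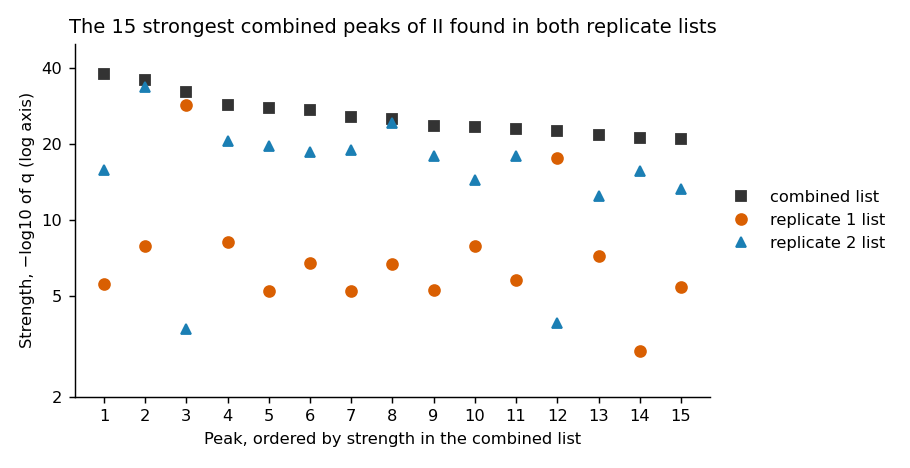
Strength (vertical axis, −log10 of the authors' q-value, log scale) of the 15 strongest combined peaks of chromosome II found in both replicate lists, ordered by combined strength (horizontal axis), in the combined, replicate 1 and replicate 2 lists. Replicate 2 lies above replicate 1 at 13 peaks, and peaks 3 and 12, neighbours in the right arm, are the exceptions with replicate 1 values of 28.8 and 17.7.

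The pair in the right arm went the other way. The peak at 11756559 to 11757231 had a strength of 32.3 in the combined list, 28.8 in replicate 1 and 3.71 in replicate 2. Its neighbour at 11761601 to 11762283 had 22.7, 17.7 and 3.91 in the same order. They ranked 10 and 17 in the replicate 1 list, and the next replicate 1 peak of chromosome II ranked 78, with 8.21. Between them lay a weaker combined peak with a strength of 5.10, at 11759197 to 11759648, that replicate 1 alone overlapped. The 3 peaks spanned 5.73 kb and were followed by 79410 bp without a combined peak. The calls of the replicates lay in the same place, with midpoints 6 and 19 bp apart at the 2 strong peaks. Which library of replicate 1 carried this signal could not be seen in the lists.

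Across the chromosome the replicate calls were mostly close in position and weakly related in rank. At 162 positions, the pair in the right arm among them, 1 combined, 1 replicate 1 and 1 replicate 2 peak met. Midpoints of the replicate peaks were a median of 30.8 bp apart, and within 100 bp at 137 positions. The combined peaks there had a median strength of 10.5, the replicate 1 peaks 3.12 and the replicate 2 peaks 5.98, and replicate 2 was higher at 140 of the 162. Across the 162 positions, which come from the same few libraries, Pearson's r between the replicate strengths was 0.22 and Spearman's rho was 0.39. Without the 2 positions farthest from the median in replicate 1, which are the pair in the right arm described above, r was 0.51, so the low r rests on that pair.

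Every combined peak of II was sorted by the replicate lists that overlapped it by at least 1 bp. Both lists overlapped 164 peaks, or 18.1% (15.7 to 20.7%), against 20.0% in the whole combined list. Replicate 2 alone overlapped 420 (46.4%, 43.1 to 49.6%), against 41.1% in the whole list, and replicate 1 alone 50 (5.52%, 4.21 to 7.20%), against 5.67%. Neither list overlapped 272 (30.02%, 27.1 to 33.1%), against 33.2%. The share in both lists was lower on II than on the other 5 chromosomes, 18.1% against 20.3%, but the difference did not pass the test (odds ratio 0.866, Fisher's exact test, two-sided, adjusted p = 0.221). It passed when overlap was required to be reciprocal and at least 50%, with 14.9% on II and 18.1% on the others (odds ratio 0.792, Fisher's exact test, adjusted p = 0.0361, against 0.0970 to 0.691 under the other 4 settings).

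**Figure D5:**
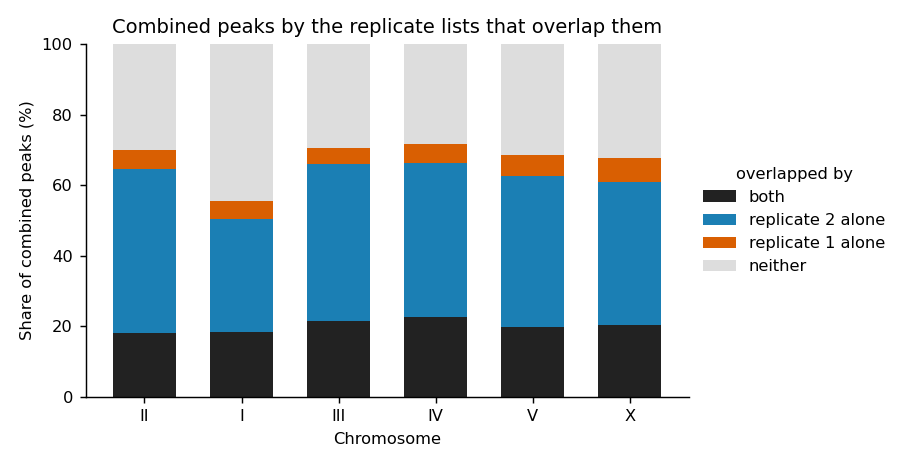
Share of combined peaks (vertical axis, %) overlapped by both replicate lists, replicate 2 alone, replicate 1 alone or neither, on chromosome II and the other 5 chromosomes (horizontal axis). On II the part overlapped by replicate 2 alone, 46.4%, is the largest of the 6 chromosomes.

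Strength and class went together. The median combined strength was 10.5 for peaks in both lists, 4.48 for replicate 2 alone, 4.18 for replicate 1 alone and 2.53 for neither, and median widths were 474.5, 371, 342 and 262.5 bp in that order. Among the 227 strongest peaks of II, 137 (60.4%) were in both lists and 0 in neither. Among the 226 weakest, 0 were in both and 177 (78.3%) in neither. How the combined list was made is not stated in the sources used, so strength and class may not be independent, and this is a description. By position, both lists overlapped 19.8% of peaks in the centre (16.6 to 23.4%), 18.6% in the left arm (13.0 to 25.8%) and 14.1% in the right arm (10.3 to 19.1%). Replicate 2 alone overlapped 43.4%, 45.7% and 53.1% in the same order. The intervals overlap and the parts were not tested against each other.

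Named by strength, the leading peaks of replicate 2 alone lay at 9727109 to 9727667 (combined strength 15.4, replicate 2 strength 14.9), 410901 to 411278 (12.0 and 14.4) and 5543292 to 5544461 (11.6 and 12.2). Those of replicate 1 alone were weaker, at 6171719 to 6172017 (combined strength 7.11, replicate 1 strength 4.01), 6345168 to 6348910 (7.02 and 2.98) and 4748390 to 4748956 (6.69 and 5.62). Those in neither list were weaker still, at 7975617 to 7976002 (5.21), 6723964 to 6724147 (4.71) and 953122 to 953384 (4.39).

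Set against each other, the replicate lists of chromosome II shared most of the shorter list. A replicate 2 peak overlapped 165 of the 223 replicate 1 peaks, or 74.0% (67.9 to 79.3%), against 76.1% in the whole list. The other 5 chromosomes together had 76.4% (odds ratio 0.877, Fisher's exact test, two-sided, adjusted p = 0.447). Conversely, replicate 1 overlapped 166 of the 632 replicate 2 peaks, or 26.3% (23.0 to 29.8%), against 31.0% in the whole list. The other 5 chromosomes together had 31.9%, and the share was lower on II (odds ratio 0.759, Fisher's exact test, two-sided, adjusted p = 0.0114). The share on II was the lowest of the 6 chromosomes, which otherwise ran from 30.05% on V to 35.9% on I. It did not pass the test in the stronger 50% of each list, where 24.4% on II stood against 29.7% elsewhere (Fisher's exact test, adjusted p = 0.144, against 0.00332 to 0.0486 under the other 4 settings). Beside this stands the make-up of the lists: chromosome II held 13.7% of all replicate 1 peaks and 15.8% of all replicate 2 peaks. The part of these unequal shares in the lower overlap was not tested.

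The leading replicate peaks of II without a partner had higher strengths in replicate 2 than in replicate 1. The medians over all replicate peaks of II also differed, 3.88 in replicate 2 and 2.94 in replicate 1. The strongest such peak of replicate 2, 9727112 to 9727696, had a strength of 14.9. It ranked 91 in its list and lay 827 bp from the nearest replicate 1 peak. The next, 410904 to 411287 with 14.4, was 96859 bp from any replicate 1 peak, and the one after, 5543296 to 5544437 with 12.2, was 9780 bp away. In replicate 1 the leading peaks without a partner had 5.62 (4748387 to 4748950), 4.82 (7654962 to 7655187) and 4.68 (7348646 to 7349242), and the nearest replicate 2 peaks were 8021, 3405 and 10683 bp away. Within the 632 replicate 2 peaks of II the 3 named ranked 17, 19 and 30. Within the 223 replicate 1 peaks of II they ranked 21, 30 and 36. All 6 of these peaks were overlapped by a combined peak. By part of the chromosome, 105 of 356 replicate 2 peaks (29.5%) had a partner in the centre, 27 of 102 (26.5%) in the left arm and 34 of 174 (19.5%) in the right arm.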

How the data were processed

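Per the file headers and source column, the authors called peaks with PeakSeq on the WormBase WS190 build and deposited a q-value for each peak. The PeakSeq version, aligner, input used per list and way of combining replicates are details not given in the sources used. Per the labels' protocols, worms were fixed with 2% formaldehyde, chromatin was sonicated and 10% of the extract was kept as input. Of the ChIP libraries 2 carry the replicate number 1 and 1 the number 2.

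From the lists, overlap (at least 1 bp), position by peak midpoint, width and spacing were computed with pandas 2.3.3, scipy 1.17.1 and numpy 2.4.6 under Python 3.11.15, and plots drawn with matplotlib 3.10.9. Functions were checked on simulated data. Tests were two-sided exact binomial and Fisher's exact tests. The lists hold no value per library, so no SD is given. Chromosome lengths of WS190 were not used. Members and tests were chosen with earlier results of these data known. The regions named are the 15 strongest combined peaks in both replicate lists, the 3 strongest of each other class and of each replicate list without a partner, and the 5 widest peaks, densest windows of 100 kb, longest gaps and largest runs, with ties for the fifth place of windows and runs named too. Other peaks named beside these, and the 19.4 kb region, were chosen after their values were seen. Alternatives were a stricter threshold (stronger 50%), merging within 1 kb, each replicate list alone, leaving out chromosome I, 2 other overlap rules and centres of 50% and 30%.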

Additional observations from a re-analysis of the deposited data

How the results depend on the processing

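Of 39 alternative results for the 7 comparisons, 32 kept their direction and their side of the threshold. The centre to arm ratio of 2.07 on chromosome II kept both under all 6 of its alternatives, from 1.88 with peaks within 1 kb merged to 2.53 in replicate 1 alone, with 1.93 in replicate 2 alone. The left to right ratio of 0.581 ran from 0.568 to 0.672 in 5 alternatives. Leaving out either replicate list gave 0.586 to 0.766, and at 0.766, in replicate 1 alone with 83 arm peaks, it no longer passed. The density ratio of II to the other chromosomes of 0.955 ranged from 0.879 to 1.04 with 1 replicate list left out and reversed to 1.03 without chromosome I. It did not pass under any setting. The odds ratio of the centre share, 1.096, reversed to 0.995 in the stronger 50% and ranged from 1.01 to 1.03 with 1 replicate list left out. That of the replicate 1 share, 0.877, reversed to 1.17 in the stronger 50%. The odds ratio of the share in both lists, 0.866, became 0.792 and passed with reciprocal overlap. That of the replicate 2 share, 0.759, became 0.765 in the stronger 50% and no longer passed, with fewer peaks tested. The cause of the other changes was not tested. No paired analysis was possible because the lists hold no value per library. Without read counts, no depth limit can be set for stretches that lack a peak.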

Other observations

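On chromosome II 36 of the 906 combined peaks were under 100 bp wide, the narrowest 2 bp, against 234 of 5253 on the other 5 chromosomes. Both replicate lists overlapped 0 of the 36, replicate 2 alone 6, replicate 1 alone 2 and neither 28, and their median strength was 2.75. Of all 906 combined peaks of II, both lists overlapped 164 and neither overlapped 272.

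The combined list lacked 46 of the 632 replicate 2 peaks of II, or 7.28%, against 0.784% on I and 4.39 to 6.36% on III, IV, V and X. Their median strength was 2.31, and the strongest, 8525326 to 8525647 in the densest window, had 3.53. It also lacked 8 of the 223 replicate 1 peaks of II (3.59%), against 1.92% on the other 5 chromosomes together and 3.52% on V alone. The median strength of these 8 was 2.26. None of these 54 peaks had a partner in the other replicate list.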
